A study of Mus musculus with 2 samples.

Results

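The genes described here are 55 mouse genes known from the male germ line, taken as a fixed list of names. They are arranged by stage: 22 genes of spermatogonia and the early germ line, 26 genes of meiosis and 7 genes of spermatids. All 55 were found by symbol among the mouse transcripts, and 14450 genes in all had at least 1 tag of their own. Digital gene expression (DGE) counts short sequence tags, each holding a CATG site cut by the enzyme NlaIII and the 17 bases behind it. GC-1spg, a line derived from type B spermatogonia of a mouse of 10 days and transformed with the plasmid pSV3-neo, was compared with GC-2spd (ts), a line derived from spermatocytes of a mouse of 6 weeks and transformed with the SV40 large T antigen. Both lines therefore carried a transforming agent, and both were kept in DMEM with FBS (10%) and sodium bicarbonate (1.5 g/L). The labels place GC-1spg between type B spermatogonia and primary spermatocytes, and give GC-2spd (ts) a premeiotic stage. There was 1 library per line and no replicate, so every test below compares these libraries and has no measure of the spread between cultures.

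In the testis, spermatogonial stem cells renew themselves and give rise to type B spermatogonia, which divide into primary spermatocytes. Spermatocytes then break and repair their own DNA, pair their chromosomes along the synaptonemal complex and hold them with meiotic cohesins, before the haploid spermatids replace histones with transition proteins and protamines. Many of these genes have a close relative that serves dividing somatic cells. Not all are confined to the germ line, as *Crem* also has forms made in many tissues. Use of the others outside the germ line was not examined here.

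A gene was called listed where at least 1 sense tag belonged to that gene and to no other. Counts are summed copies of such tags, and TPM scales them to the total of clean tags. That total was 5072149 for GC-1spg and 4726808 for GC-2spd (ts), so that a single copy was worth 0.197 and 0.212 TPM. Values given as a pair are in this order throughout, GC-1spg first. Tags seen once had been removed by the authors, and an unlisted gene may thus have had single copies: 1 unlisted copy allows a mean of up to 4.74 copies, or 0.935 and 1.004 TPM (upper 95% Poisson limit). A gene listed in the other library was allowed 1 unlisted copy for each distinct tag it had there. Its further CATG sites could hide more copies, which these limits leave out. Limits and intervals cover counting error only, since tags were amplified and carried no molecular identifiers. Tag counts do not scale with transcript length, but a gene whose tags are shared with other genes is counted too low, and levels of different genes are comparable only within that limit.

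The tags of 5 genes carry the results and are given first. They are written 5′ to 3′ with the NlaIII site in capitals and positions on GRCm38. *Syce2*, *Hspa2* and *Id4* are the genes called different, *Prdm9* the one with equal totals, and *Stag3* the one whose count turned on how its tags were matched.
Syce2, main tag: CATGctgatattgttttttat
Syce2, second tag: CATGgtagtttacaaacagtt
Syce2, coding tag: CATGcacttatgaccaacttc
Hspa2, main tag: CATGgagatttgcttgaaagt
Hspa2, upstream tag: CATGaccaaggacaataacct
Id4, main tag: CATGtgaaaattaaaagtaga
Prdm9, first tag: CATGttgattcacagaacaaa
Prdm9, second tag: CATGtacgttcccccagaaac
Prdm9, coding tag in exon 9: CATGggcctcctttatttgta
Stag3, tag read into the tail: CATGttcagctatctcataaa
Stag3, second tag read into the tail: CATGttcagctatctcaaaaa
The main *Syce2* tag lies in the 3′ UTR in exon 5 on the plus strand, at chr8:84887237-84887257. The main *Hspa2* tag lies in the 3′ UTR in exon 2, plus strand, at chr12:76406735-76406755. The *Id4* tag lies in the 3′ UTR in exon 3, plus strand, at chr13:48264478-48264498. The first *Prdm9* tag is in the coding sequence of exon 10 on the minus strand, at chr17:15545170-15545190. The *Stag3* tags are shown because their last bases are not in the annotated transcript, and they are taken up with the meiotic cohesins.

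Of the 55 genes, 16 were listed in at least 1 library (29.1%) and 39 in neither. Each library listed 12: 8 genes were listed in both, *Lin28a*, *Mei1*, *Mei4* and *Spo11* in GC-1spg alone, and *Ret*, *Piwil4*, *Tdrd1* and *Tex15* in GC-2spd (ts) alone. For scale, 12487 of 21951 protein-coding genes were listed (56.9%), and 77 of 1135 olfactory receptor genes (6.78%), a family used by sensory neurons. Levels were low as well: the 16 listed genes had a median of 9 tags over both libraries against 132 for listed protein-coding genes, and 3 for listed olfactory receptors. A lower level in a library can come from fewer cells that express the gene or from less RNA per cell, and these cannot be told apart here.

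**Figure D1:**
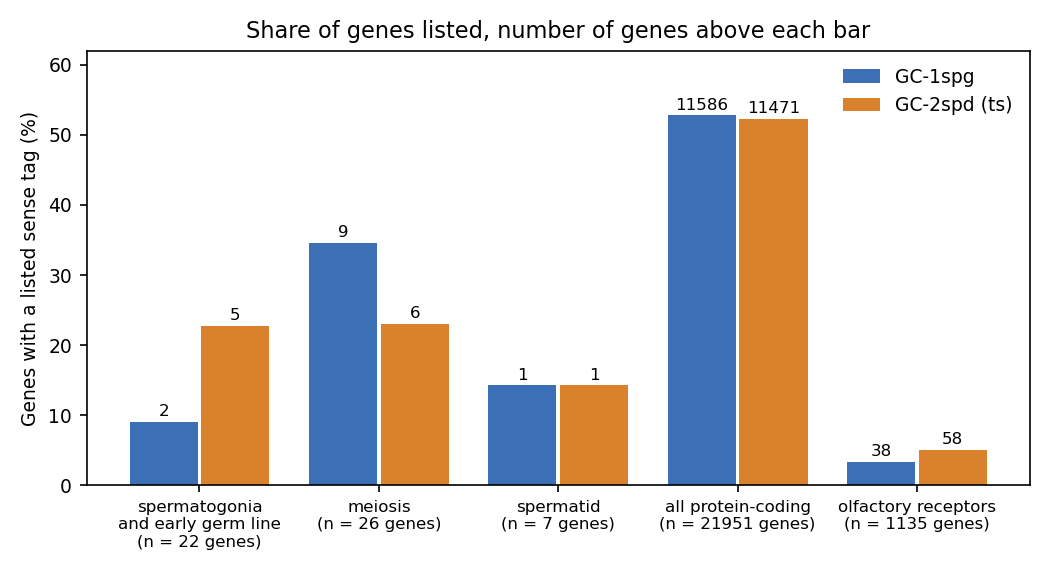
Share of genes with a listed sense tag, in percent, for each stage and for 2 wider sets of genes, in the GC-1spg and GC-2spd (ts) libraries. The number above each bar is the number of genes listed: the GC-1spg library listed 9 of the 26 meiosis genes and the GC-2spd (ts) library 6, and every stage stood below the share of all protein-coding genes.

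The genes that define germ cells by name were among the unlisted. *Ddx4* and *Dazl*, RNA-binding proteins found in germ cells of every early stage, had no tag of their own in either library. Neither did *Stra8*, which is induced as cells commit to meiosis, or *Kit*, the receptor of differentiating spermatogonia. The sample labels give the source of both lines as male germ cells, and none of these markers was listed in either library. Single copies of them could have gone unlisted, and the origin of the lines was not tested. Markers of other cells did appear: 10 of 12 fibroblast genes were listed, at 3864 and 3075 TPM summed. Among these, *Col1a1*, the main collagen chain of connective tissue, had the most tags of the GC-1spg library (10465 and 2425). *S100a4*, which was not called, had the most of the other library (3873 and 4784). Fibroblast genes moved both ways, with 2 called lower, *Col1a1* and *Dcn* (710 and 2), and 5 called higher, among them *Vim* (984 and 2897), *Col5a2* (562 and 1931) and *Postn* (0 and 175). *Thy1* and *Lum* were at 0 in both libraries. Among all genes tested, 7.84% were called lower and 11.7% higher, and 56.9% of protein-coding genes were listed. Of the Sertoli cell genes 8 of 13 were listed (825 and 392 TPM), and most of this sum was *Ctsl* (506 and 295 TPM) and *Clu* (178 and 55.4 TPM). Among their transcription factors *Wt1* had 620 and 0 tags, *Gata4* 29 and 138 and *Sox9* 29 and 46. *Dhh* had 24 and 0 tags and *Amh* 5 and 0, while the defining genes *Fshr* and *Rhox5* were at 0 in both libraries. The sums were 0.789 and 40.8 TPM over 3 of 9 Leydig genes, 13.0 and 123 TPM over 6 of 6 peritubular myoid genes, and 0.789 and 0.635 TPM over 1 of 5 macrophage genes. In GC-2spd (ts) *Nr5a1* gave 188 of the 193 Leydig tags, with the steroidogenic genes *Cyp17a1* and *Hsd3b1* at 0, and *Acta2* gave 117 of the 123 myoid TPM, with *Myh11* at 2 tags. Both libraries come from cultured lines, and which cells gave these marker tags or the germ-line counts was not tested.

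Over all genes, 2817 of 14450 (19.5%) passed a false discovery rate of 0.001 and a 2-fold difference between the libraries. In GC-2spd (ts), 1684 were higher (11.7%) and 1133 lower (7.84%). Of the 16 listed germ-line genes, 1 was called higher (*Syce2*), 2 were called lower (*Hspa2* and *Id4*) and 13 were not called, a share close to that over all genes. That share holds genes too low to be called: those listed in 1 library alone had 9 tags or fewer. Even a gene at 0 and 11 tags was not called. At a minimum of 10 tags over both libraries, 7 of the 16 remained with the same calls, and 25.4% of all genes were called. Together the 55 genes had 209 and 957 tags, or 41.2 and 202 TPM. *Syce2* supplied 85.8% of the tags in GC-2spd (ts), and without it the sums were 204 and 136 tags. The median log2 ratio of GC-2spd (ts) over GC-1spg was 0.16 among the 11373 genes listed in both libraries. Under TMM scaling the log2 ratio of genes listed in both libraries dropped by 0.17, and the calls of the 16 germ-line genes stayed as they were. With edgeR's exact test at an assumed coefficient of variation of 0.4, *Syce2* was still called and *Hspa2* and *Id4* were not.

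**Figure D2:**
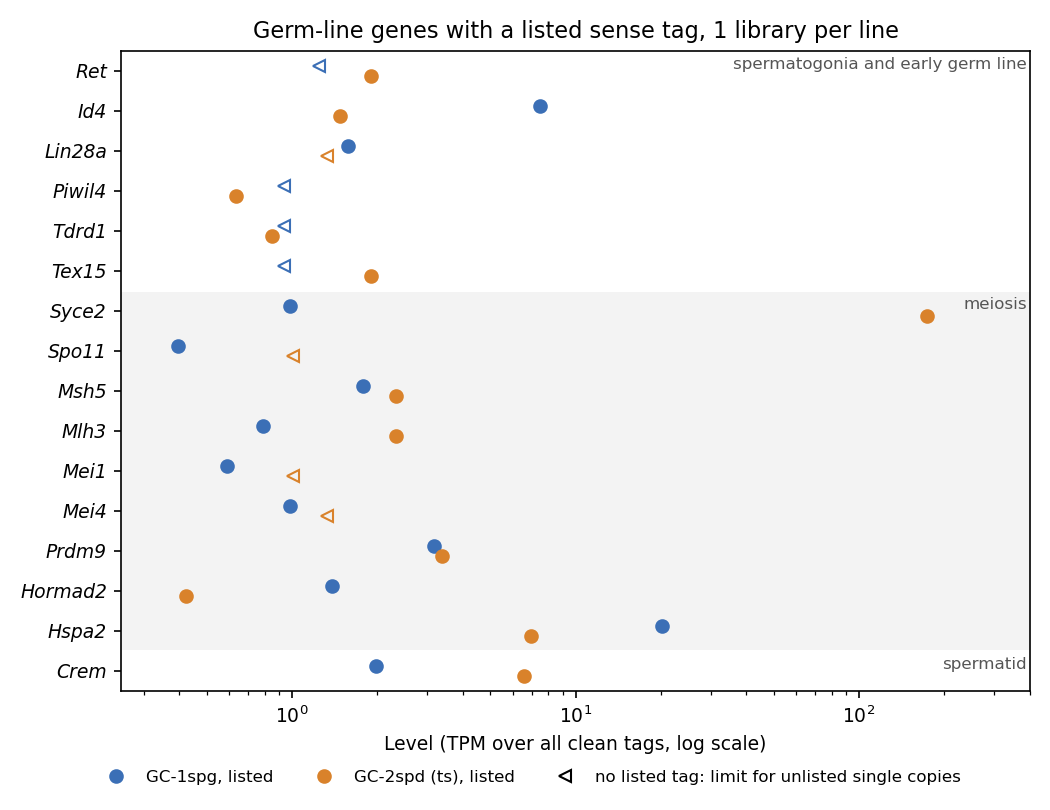
Level of each of the 16 listed germ-line genes in TPM on a log scale, in GC-1spg and GC-2spd (ts), arranged by stage. Filled circles are listed genes, and open triangles mark the limit for unlisted single copies where a gene had no listed tag. *Syce2* in GC-2spd (ts), at 174 TPM, stands apart from all others, which lie at or below the 20.1 TPM of *Hspa2* in GC-1spg.

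Among the 22 genes of spermatogonia and the early germ line, 6 were listed and only *Id4* was called. They had 46 and 32 tags (9.07 and 6.77 TPM). *Id4*, an inhibitor of basic helix-loop-helix factors that marks spermatogonial stem cells, fell from 38 tags (7.49 TPM) to 7 tags (1.48 TPM). That is 5.06-fold lower, with a log2 ratio of -2.34 and an exact 95% interval of -3.75 to -1.16. Of its 4 distinct tags, the one shown above gave 31 and 7 copies, and the other 3 gave 7 copies between them in GC-1spg and none in GC-2spd (ts). That tag stands at the fourth CATG from the annotated 3′ end. Counted at the last site alone, *Id4* had 2 and 0 tags and was not called.

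The other 5 were listed in a single library at 9 tags or fewer. *Ret*, the signalling receptor for the stem cell factor GDNF, had 0 and 9 tags (1.90 TPM in GC-2spd (ts), from tags of 5 and 4 copies). That level was 1.53 times its limit for unlisted copies in GC-1spg, 1.24 TPM. *Gfra1*, the co-receptor that binds GDNF beside it, was unlisted, as its single tag also reads as the antisense strand of the gene model *Gm16277*. That shared tag had 3 and 11 copies. *Lin28a*, an RNA-binding repressor of let-7 microRNAs, had 8 tags in GC-1spg (1.58 TPM) and none in the other library. Its level in GC-1spg was 1.18 times its limit in GC-2spd (ts), 1.33 TPM. *Tex15*, needed for double-strand break repair and for transposon silencing in male germ cells, had 0 and 9 tags (1.90 TPM in GC-2spd (ts)). That level was 2.04 times its limit in GC-1spg, 0.935 TPM. These multiples leave out the counting error of the listed tags, so they are not lower bounds on a fold. None of these differences was called, and none could be at these counts.

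*Piwil4*, a PIWI protein of fetal germ cells, had 3 tags and *Tdrd1*, a Tudor-domain scaffold of the piRNA pathway, had 4 tags in GC-2spd (ts) (0.635 and 0.846 TPM). Both were at 0 in GC-1spg, where 1 unlisted copy allows up to 0.935 TPM, so no fold is given. The 16 unlisted genes of this stage included *Zbtb16* and *Sall4*, transcription factors of undifferentiated spermatogonia. *Nanos2* and *Nanos3*, translational regulators of the male germ line, *Dppa3* and *Pou5f1* of the early germ line and *Dnmt3l*, a cofactor of DNA methylation in prospermatogonia, were unlisted too. *Tex14* and *Tex101* had no listed tag either. *Nanog*, a pluripotency factor, had tags with 9861 and 5592 copies, but each of them also matched at least 790 other genes, and these copies cannot be given to it. *Piwil2* had 14 and 12 copies of tags shared with 4 to 43 other genes.

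The meiosis genes had 153 and 894 tags (30.2 and 189 TPM). Of the 26, 9 were listed, and all 9 were listed in GC-1spg against 6 in GC-2spd (ts). *Syce2* rose and *Hspa2* fell, and the other 7 were not called.

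*Syce2*, a protein of the central element of the synaptonemal complex, rose from 5 tags (0.986 TPM) to 821 tags (174 TPM). This is 176-fold higher, with a log2 ratio of 7.46 (6.23 to 9.09). In GC-2spd (ts) it ranked 633 by tag count among the 14450 genes, against 10932 in GC-1spg. The main tag shown above had 5 and 750 copies. The second, at chr8:84888170-84888190 near the end of a longer 3′ UTR, had 0 and 51, and the remaining tag, in the coding sequence of exon 3 at chr8:84883543-84883563, had 0 and 20. All 3 sites were thus higher in GC-2spd (ts). Every other protein of the complex in the list was unlisted. These were *Sycp2* and *Sycp3* of the lateral elements, *Sycp1* of the transverse filaments, and *Syce1*, *Syce3* and *Tex12*, partners in the central element. *Tex12* has a single CATG site with room for a tag, whereas the most tagged transcripts of *Sycp2*, *Syce1* and *Syce3* have 23, 6 and 6.

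Genes beside *Syce2* on chromosome 8 were looked up after its count had been seen. *Farsa*, which ends 2854 bases upstream on the same strand and encodes a subunit of phenylalanyl-tRNA synthetase, had 77 and 205 tags and was called higher (log2 ratio 1.51, interval 1.13 to 1.91). *Gcdh*, which overlaps the 3′ end of *Syce2* on the opposite strand, had 59 and 132 tags and was called higher too (1.26, 0.81 to 1.73). The main and second *Syce2* tags lie within the span of *Gcdh*, with 750 and 51 copies in GC-2spd (ts). Only the coding tag lies outside it, with 20 copies there. *Calr*, encoding the chaperone calreticulin, and *Dnase2a*, encoding a lysosomal nuclease, were called higher within 40000 bases as well, at log2 ratios of 1.45 and 2.34. *Gadd45gip1* (0 and 7 tags) and *Klf1* (0 and 6) were not called, and not every gene of this stretch is reported. The intervals of the 4 called neighbours lay below that of *Syce2*.

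*Hspa2*, the HSP70 chaperone that is abundant in pachytene spermatocytes, fell from 102 tags (20.1 TPM) to 33 tags (6.98 TPM). It was 2.88-fold lower, with a log2 ratio of -1.53 (-2.14 to -0.95). Its 3′ UTR tag had 97 and 33 copies, and an upstream tag in the coding sequence had 5 and 0. Among the 55 genes it had the most tags in GC-1spg. Its antisense strand had 21 and 14 copies.

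Among the 55 genes, those that make or repair meiotic breaks were listed at 16 tags or fewer per library. *Prdm9*, the histone methyltransferase that sets recombination hotspots, had 16 tags in each library (3.15 and 3.38 TPM), with a log2 ratio of 0.10 (-0.99 to 1.20). Its 3 tags gave 8 and 8, 5 and 6, and 3 and 2 copies, so that no site differed by more than 1 copy. *Msh5*, a subunit of the MutS heterodimer that stabilises crossover intermediates, had 9 and 11 tags (log2 ratio 0.39, -1.02 to 1.84), spread over 5 distinct tags. *Msh4*, its partner, was unlisted, with 86 and 123 copies of tags shared with 10 to 248 other genes. *Mlh3*, a MutL protein of crossover resolution, had 4 and 11 tags (1.56, -0.19 to 3.67). None of the 3 was called, and each interval held 0 and folds past 2 in at least 1 direction.

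*Spo11*, the enzyme that cuts the DNA, had 2 tags in GC-1spg (0.394 TPM) and none in GC-2spd (ts). *Mei4*, one of its accessory factors, had 5 and 0 tags, from tags of 3 and 2 copies. *Mei1*, required for break formation, had 3 and 0, all from a tag that matched with 1 mismatch. The levels of these genes in GC-1spg lie under the limit for 1 unlisted copy in the other library (1.004 TPM), and no fold is given. *Hormad2*, a HORMA-domain protein of unsynapsed axes, had 7 and 2 tags (log2 ratio -1.71, -5.01 to 0.69), and its relative *Hormad1* was unlisted. *Dmc1*, the meiotic recombinase, was unlisted, with 0 and 2 copies of a tag shared with *Jchain*. *Tex11* and *Piwil1* had no tag either.

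The meiotic cohesin subunits *Stag3*, *Rec8* and *Smc1b* were unlisted when tags were matched to annotated transcripts. For *Stag3* this depended on where the transcript ends, since its last CATG lies fewer than 17 bases from the annotated end of a protein-coding transcript. With 17 A bases added behind every transcript, a choice made after the counts had been seen, both *Stag3* tags shown above matched exactly and to no other gene. The first had 22 and 0 copies, the other 17 and 2. *Stag3* then stood at 39 and 2 tags (7.69 and 0.423 TPM) and was called lower, at a log2 ratio of -4.18 (-7.28 to -2.23), beside *Hspa2* and *Id4*. The last CATG lies as near the end of a protein-coding transcript in *Crem*, *Gfra1* and *Sall4*. *Gfra1* and *Sall4* gained no tag with the added tail, and *Crem* gained 3 copies in GC-2spd (ts).

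**Figure D3:**
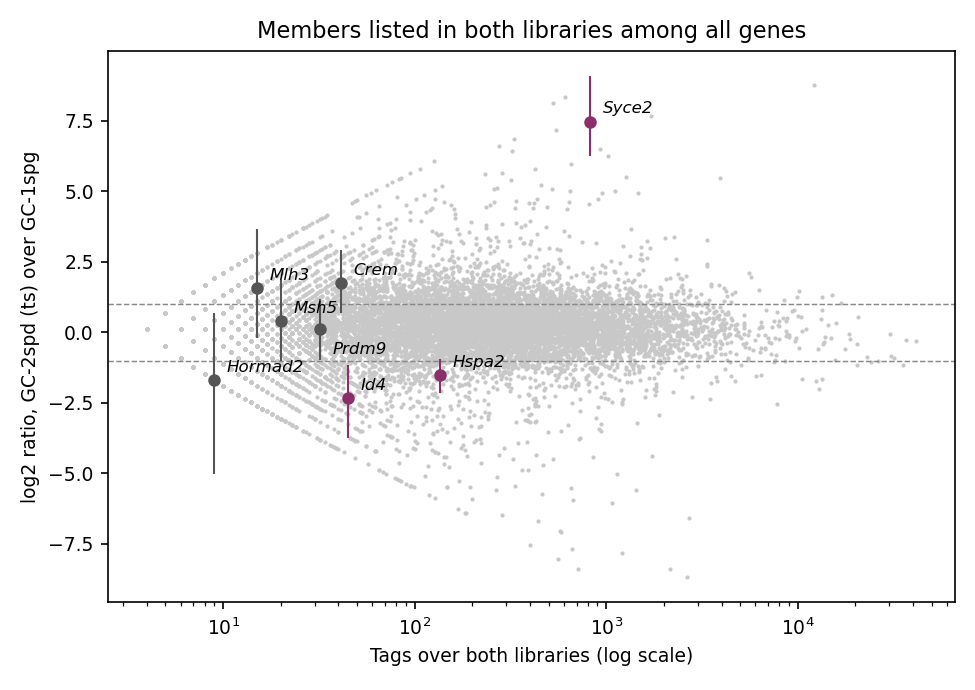
Log2 ratio of GC-2spd (ts) over GC-1spg against tags over both libraries on a log scale, for the genes listed in both (grey) and the 8 germ-line genes among them with exact 95% intervals; purple marks called genes and dashed lines a 2-fold difference. *Syce2* lies near the top at 7.46, *Hspa2* and *Id4* lie below the lower line, and the other 5 rest on few tags and wide intervals.

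Of the 7 spermatid genes only *Crem* was listed. *Crem* encodes a CREB-family transcription factor with a testis activator form and with forms made in many tissues. It had 10 and 31 tags (1.97 and 6.56 TPM), with a log2 ratio of 1.73 (0.67 to 2.93). It did not pass the threshold against annotated transcripts and passed it with the added tail, at 10 and 34 tags (1.87). The 3 copies gained there came from a tag that matched with 1 mismatch. With exact matches to annotated transcripts only, *Crem* had 10 and 27 tags and was not called. All 6 of its distinct tags lay in the 3′ UTR of 1 or more of its transcripts. The DNA-packaging genes *Tnp1*, *Tnp2*, *Prm1* and *Prm2*, and the tail gene *Odf1*, had no sense tag of any kind, shared or not. *Acrv1*, encoding an acrosomal protein, had only tags shared with 21 to 77 other genes, at 272 and 333 copies.

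Seen over the 39 unlisted genes, every gene has at least 1 CATG site that could give a tag, with a median of 8 sites in the transcript that has most. Of these genes, 31 had no shared sense tag either. The other 8 had sense tags shared with other genes, among them *Sycp1* (10 and 112 copies, each tag also in 82 or 85 other genes) and *Sycp3*, whose tag of 2 and 0 copies is also the antisense strand of *Chpt1*. Of the 36 distinct tags that counted for the listed genes, 34 matched exactly, and 27 lay at the last CATG of a transcript and held 1085 of 1166 copies.

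Broadly expressed relatives were counted for 11 of the germ-line genes. All 11 relatives were listed in both libraries, against 2 of the 11 germ-line genes (*Hspa2* and *Crem*). *Ldhc* and *Pgk2*, glycolytic enzymes of meiotic and later germ cells, were unlisted, while *Ldha* had 25130 and 10396 tags and *Pgk1* 17937 and 8205, both called lower. *Smc1b* and *Rec8* were unlisted beside *Smc1a*, at 470 and 1228 tags and called higher, and *Rad21*, at 1145 and 1096. *Stag2*, the relative of *Stag3*, had 185 and 313 tags. *Ccna1* was unlisted beside *Ccna2*, the cyclin of S phase (107 and 229, called higher). *Ddx4* was unlisted beside *Ddx3x* (1932 and 2181) and *Piwil2* beside *Ago2* (416 and 449). *Dnmt3l* was unlisted beside *Dnmt3a*, a DNA methyltransferase that fell from 95 to 14 tags.

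Where both were listed, *Creb1* had 79 and 71 tags beside *Crem*. *Hspa8*, the constitutive HSP70, had only 2 tags of its own in each library, and 16 and 10 with pseudogene transcripts left out of the reference, so its level against *Hspa2* cannot be read from these tags.

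**Figure D4:**
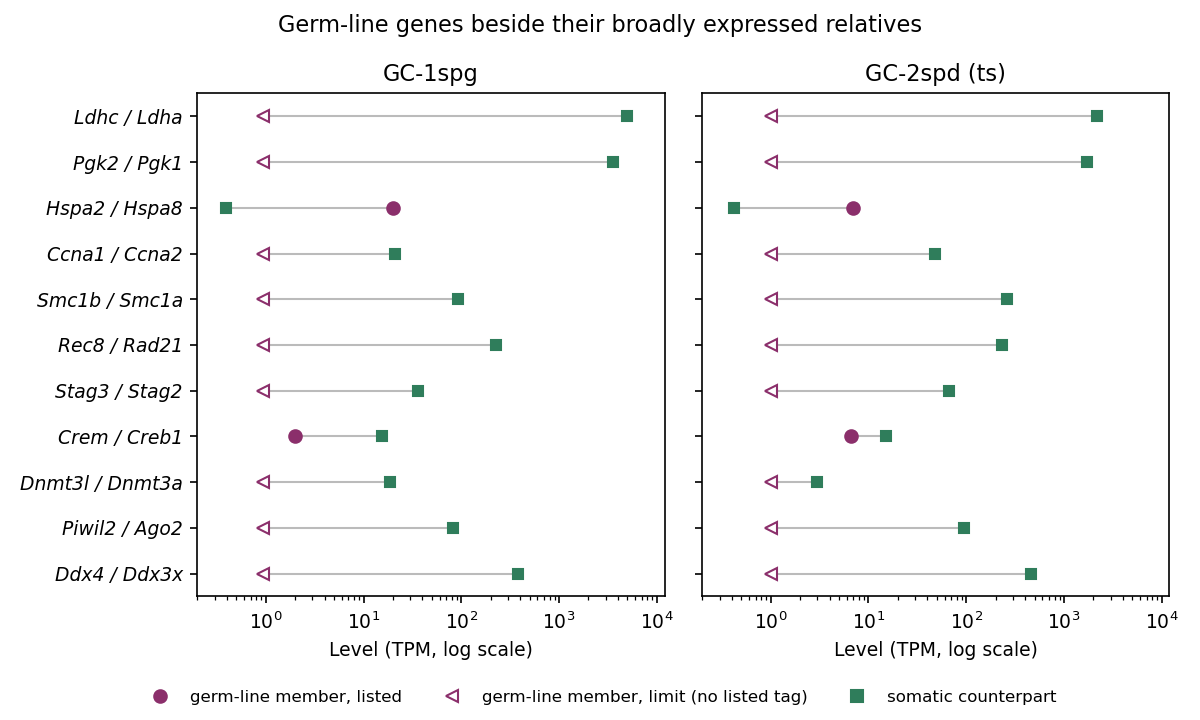
Level in TPM on a log scale of 11 germ-line genes (circles, or open triangles at the limit for 1 unlisted copy) and of their broadly expressed relatives (squares), in each library. The relative stands to the right in every pair but *Hspa2* and *Hspa8*; *Stag3* is drawn as unlisted, as matched to annotated transcripts.

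Further genes of the same stages were counted for comparison. Beside each list stand the shares over all genes: 56.9% of protein-coding genes were listed, and 19.5% of the 14450 genes tested were called. No list was tested against these shares. Of 25 further spermatogonial genes 13 were listed, 1 was called higher and 3 lower. *Etv5*, a transcription factor downstream of GDNF, rose from 35 to 123 tags, whereas *Bcl6b*, another GDNF-responsive factor, fell from 36 to 2, the integrin *Itga6* from 205 to 27 and the ubiquitin hydrolase *Uchl1* from 329 to 66. The surface protein *Cd9* (333 and 240), the cyclin *Ccnd2* (232 and 323) and the retinoic acid receptor *Rarg* (454 and 253) were not called. Of 25 further meiosis genes 9 were listed, 3 were called higher and none lower: *Trip13*, an ATPase that remodels HORMA-domain proteins (120 and 255), *Ythdc2*, an RNA helicase of meiotic entry (18 and 47), and *Cpeb1*, a regulator of polyadenylation (12 and 59). *Sun1* (297 and 405) and *Psmc3ip* (280 and 153) were not called.

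Of 30 further spermatid genes 7 were listed, and *Catsper2*, a subunit of the sperm calcium channel, was called lower (87 and 9 tags). *Odf2* (97 and 135), also a centrosomal protein, and *Tbpl1* (72 and 66) were not called. Of 15 further genes of the piRNA pathway and its germ granules 6 were listed. *Tdrd7* rose from 57 to 145 tags, while *Tdrkh* (7 and 23), *Rnf17* (0 and 8) and *Pld6* (3 and 0) were not called. Among housekeeping genes *Eef2* had 7963 and 5575 tags, *Actb* 5827 and 11065, *Rpl13a* 746 and 298 and *Hprt* 374 and 706. *Tbp* had 374 and 362, *Gapdh* 2 and 4 and *Ppia* 6 and 3, and *Eef1a1* had no tag of its own. Tags shared with other genes are left out of these counts, so the low ones do not show low expression.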

How the data were processed

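The deposited tables give, per library, each clean tag with its copy number, a raw count, and the authors' TPM. Per the study's methods, the authors removed adaptor tags, tags with unknown bases and tags seen once, and matched tags to UniGene; these sources name no matching program. Counts were used here, and TPM was recomputed over all clean tags. Tags were matched with at most 1 mismatch to every CATG site, on both strands, of GENCODE M21 transcripts (GRCm38). Copies of sense tags of 1 gene only were summed. Libraries were compared by the two-sided Audic-Claverie test with Benjamini-Hochberg adjustment over 14450 genes, with 0.01 TPM for a gene at 0, and checked on simulated data; edgeR's quasi-likelihood test could not be fitted without replicates. Ratio intervals are exact conditional binomial 95% intervals. Alternatives used other matching, scaling, a minimum of 10 tags, a binomial test and edgeR 4.0.16 with assumed variation. Python 3.11.15, scipy 1.17.1 and R 4.3.3 were used. The 55 genes and all lists were chosen with earlier results of these data known. Every listed member is named, with up to 4 genes of most tags per further list, relatives and housekeeping genes. Other called genes of the lists, absent markers and the genes beside *Syce2* were chosen after values were seen. Some genes are not reported here.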

Additional observations from a re-analysis of the deposited data

Results flagged for a closer look

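Antisense tags, which the counts above leave out, were present for some of these genes above the limit for unlisted single copies. *Hspa2* had a single antisense tag, with 21 copies in GC-1spg and 14 copies in GC-2spd (ts). *Syce2* had 19 antisense copies in GC-2spd (ts) and 0 in GC-1spg. *Msh5* had 8 antisense copies and *Prdm9* had 7 in GC-1spg, against 3 and 2 in GC-2spd (ts). The sense tag that *Gfra1* shares with the antisense strand of *Gm16277* had 11 copies in GC-2spd (ts). Where tags of both strands were summed, 19 genes were listed in place of 16.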

How the results depend on the processing

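No paired analysis was possible because each line has 1 library. Of the recomputed counts of listed or called genes, 69 stayed within 1.5 times their value and 3 did not. Counting only the last CATG site of a transcript, 1 gene was called lower (*Id4* was not, at -5.30 from 2 and 0 tags). With edgeR's exact test at an assumed variation of 0.4, 0 were called lower, as *Hspa2* and *Id4* no longer passed, while over all genes 108 were called higher, *Syce2* among them, and 136 lower. With transcripts extended by poly(A), chosen after seeing the data, 2 were called higher, *Crem* joining *Syce2*, and 3 lower. Among uncalled genes, *Msh5* reversed to -0.38 with the last site alone and to -0.18 with antisense tags summed, and *Prdm9* to -0.25 with antisense tags summed and to -0.072 under TMM. Scaling moved the calls over all genes from 1684 higher and 1133 lower to 1292 and 1443 under TMM and to 1481 and 1278 with scaling to unambiguous tags. *Syce2* was called higher under every alternative run. The lines were sequenced without replicates, so no call separates the lines from these cultures. Removal of single copies limits what can be seen below about 1 TPM.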
